A study of Mus musculus with 12 samples.

Results

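The sorting nexin, retromer and COMMD/CCC genes are 46 genes whose products sort cargo on endosomes. They were taken by name from the deposited count tables: every symbol made of Snx or Commd and a number, together with Vps35, Vps26a, Vps26b, Vps29, Tbc1d5, Ccdc22 and Ccdc93. Of the 47 such names among 24421 gene rows, 46 had at least 10 counts in at least 3 of the 12 libraries. The remaining name, Snx31, was listed at 0 counts in every library. Snx22 lay just inside that limit, with 11 to 23 counts per library. The rule used names and counts and no difference between groups, but it was set with earlier results of these data known.

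PolyA RNA was sequenced from bone marrow-derived macrophages (BMDM), macrophages cultured from the marrow of male C57BL/6J mice aged 8 weeks. All cells carried an siRNA, either a control (siControl) or one directed at Ehd1 (siEhd1), and were either unstimulated (M0, called resting below) or given lipopolysaccharide (M1, called LPS-treated), which makes 4 groups of 3 libraries. Lipopolysaccharide is a bacterial cell wall component sensed by Toll-like receptor 4. The sources used here give neither the LPS dose and time nor the siRNA sequences, and no untransfected library was analysed here. They do not name the animal or culture behind each library either, so the p-values speak for differences between libraries, and that spread may be technical.

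Retromer, built from VPS35, VPS26 and VPS29, retrieves receptors from endosomes to the trans-Golgi network or the cell surface, and sortilin is among its known cargoes. Sorting nexins share a phosphoinositide-binding PX domain; some add a membrane-bending BAR domain and form tubules, while others choose cargo. The CCC complex, made of COMMD proteins with CCDC22 and CCDC93, acts with the related retriever complex and the actin-regulating WASH complex in a parallel recycling route. EHD1, a membrane-remodelling ATPase of recycling endosomes, has been linked to retromer in earlier cell biology.

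Library totals lay between 18572725 and 22545272 counts. Ehd1 stood at 53.3, 52.1 and 54.4 CPM (counts scaled by library size) in the resting siControl libraries and at 33.6, 32 and 29.0 CPM with siEhd1. After LPS it stood at 678, 631 and 550 CPM with siControl and at 282, 319 and 304 CPM with siEhd1. In both states the siRNA groups were separate for Ehd1, with siEhd1 below siControl, as the labels say. The reduction was partial, with 59.2% of the siControl level left in resting and 48.7% in LPS-treated cells. Every LPS-treated siEhd1 library held more Ehd1 than every resting siControl library. All 7 macrophage markers were detected, with summed levels of 19261 to 37356 CPM, while summed markers of neutrophils (at most 4.36 CPM), dendritic cells (at most 1.15 CPM) and lymphocytes (at most 0.44 CPM, with Cd3e and Nkg7 at 0) were near the floor. Summed stromal and endothelial markers were at most 3.82 CPM in resting and 19.9 CPM in LPS-treated libraries.

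Together the 46 genes took 0.366 ± 0.0011% of all counts in resting siControl cells and 0.382 ± 0.0034% in resting siEhd1 cells (mean ± SD, n = 3). After LPS the shares were 0.332 ± 0.0080% and 0.341 ± 0.0037%. To set genes against each other, levels were divided by exon length, as RPKM (CPM per kilobase of exon). The median member stood at 9.0 RPKM in resting siControl cells, against 5.16 RPKM over 12077 genes with a known length. Snx5, a BAR sorting nexin, was the most abundant at 113.8 ± 4.0 RPKM, followed by the retromer adaptor Snx3 at 99.4 ± 5.0 RPKM and Snx8 at 83.8 ± 3.4 RPKM. Vps26a (49.1 ± 2.2 RPKM) and Snx2 (48.7 ± 2.2 RPKM), the next in order, differed by less than their spread. Within retromer, Vps35 stood at 19.3 ± 0.55 RPKM, Vps26b at 16.5 ± 0.45 RPKM and Vps29 at 5.90 ± 0.38 RPKM. Exon length was the union over all annotated transcripts, which lowers the value of a gene such as Vps29, whose union spans 6148 bases. Snx22 was the lowest at 0.19 ± 0.032 RPKM.

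The order was different after LPS. In LPS-treated siControl cells Snx3 (111.5 ± 8.1 RPKM) and Snx2 (87.9 ± 3.7 RPKM) stood above Snx5 (69.1 ± 3.0 RPKM), and Snx1 (59.2 ± 1.8 RPKM) and Snx8 (58.3 ± 6.0 RPKM) differed by less than their spread. Snx29 went from place 24 to place 45 of the 46 genes and Snx10 from place 29 to place 12.

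**Figure D1:**
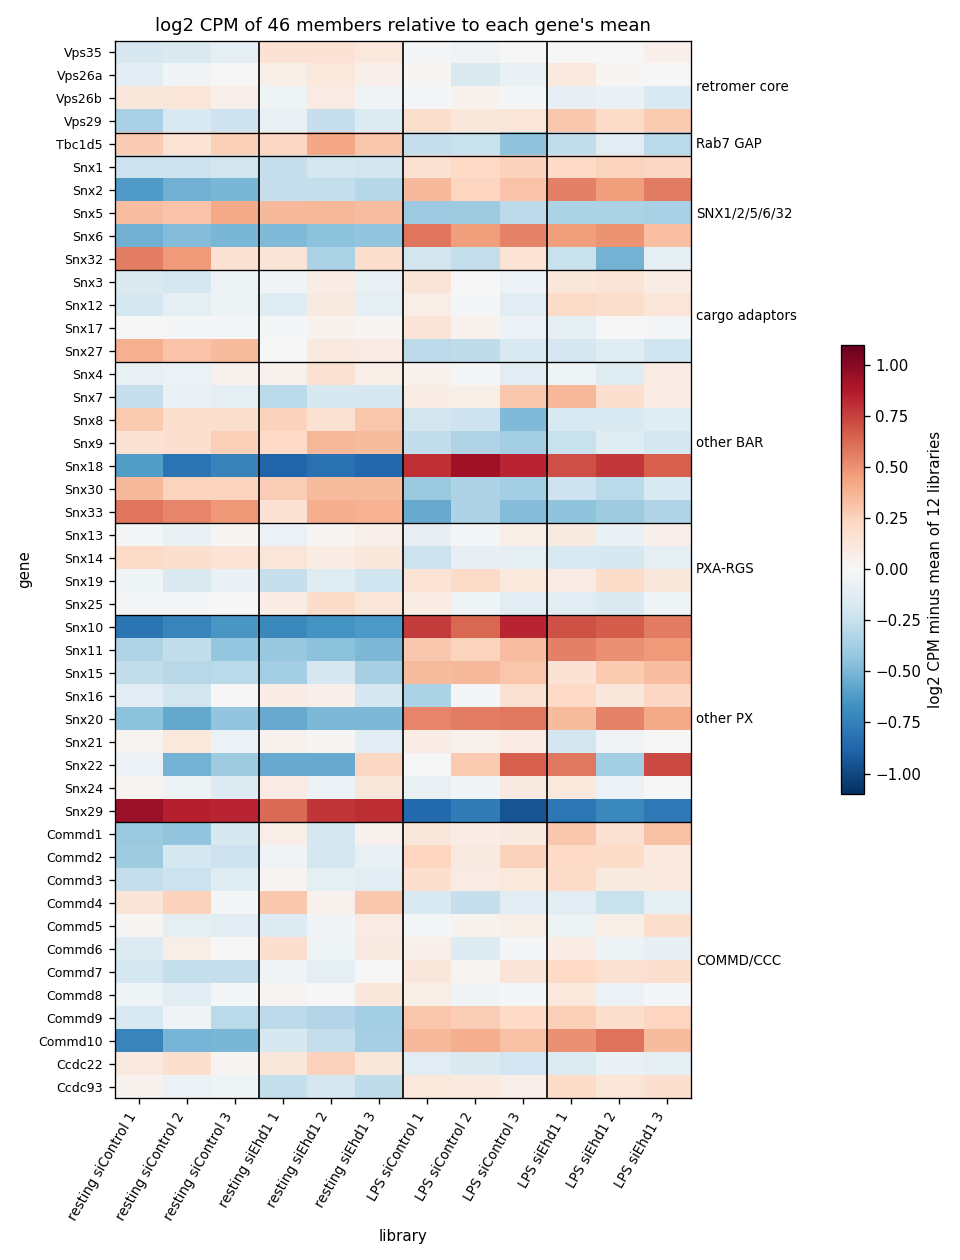
Levels of the 46 genes in each of the 12 libraries, as log2 CPM minus the gene's mean over all libraries (colour scale, red above and blue below the mean), with genes as rows ordered by role and libraries as columns. The strongest colours separate resting from LPS-treated libraries, with Snx18, Snx10, Snx20 and Snx6 red and Snx29 and Snx33 blue after LPS.

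In resting macrophages, siEhd1 was accompanied by small changes in 8 of the 46 genes. Vps35, Snx2, Commd10, Commd1 and Commd7 were higher and Snx27, Ccdc93 and Snx33 lower than with siControl, by 13.9% to 24.4% of the control level. Over all 12164 genes tested by edgeR, 28.2% were called at an adjusted p under 0.05 (14% higher and 14.2% lower). The members' share of 17.4% lay under that background. Their median absolute log2 fold change was 0.11 against 0.15 over all genes, and their median signed change was 0.05 against -0.02. Beside these changes, all 5 cell cycle markers rose (summed level 97.6 to 153.8 CPM with siControl, 337.0 to 417.8 CPM with siEhd1), 3 of 4 tested osteoclast markers rose (64.4 to 90.8 CPM and 119.8 to 154.5 CPM) and 4 of 7 macrophage markers fell (23178 to 23846 CPM and 19261 to 20593 CPM). Their part in the results below was not tested. In these bulk samples, fewer cells of a type and less RNA per cell cannot be told apart.

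Vps35, the scaffold subunit of retromer (GRCm38, chromosome 8, 85260392 to 85299802, minus strand), stood at 168, 169 and 177 CPM in the resting siControl libraries and at 211, 211 and 206 CPM with siEhd1. Every siEhd1 library lay above every siControl library. The log2 fold change was 0.29 (SE 0.05, edgeR adjusted p = 8.4e-05), and the call was kept in all 19 alternatives run. The other core genes were not called: Vps26a had a log2 fold change of 0.13 (edgeR adjusted p = 0.081), Vps26b of -0.10 (0.15) and Vps29 of 0.09 (0.31). Of the alternatives, fitting only the 6 libraries compared called Vps26a higher. Vps35 shares 171 exon bases (1.9% of its own) with Orc6 on the opposite strand, and the strand setting of the counting is not given. Orc6, a replication gene, also rose, by 0.51 on the log2 scale (edgeR adjusted p = 0.0093). Its level went from 4.80 ± 0.44 to 6.83 ± 0.35 CPM (n = 3), while Vps35 went from 171 ± 4.9 to 209 ± 3.1 CPM. Tbc1d5, which inactivates RAB7 on retromer-coated endosomes, was not called (0.09, edgeR adjusted p = 0.35).

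Among the BAR sorting nexins that pair into the ESCPE-1 tubulating complex, Snx2 alone was called of Snx1, Snx2, Snx5, Snx6 and Snx32. It stood at 125, 134 and 136 CPM with siControl and at 162, 161 and 156 CPM with siEhd1. No libraries overlapped between the groups, and the log2 fold change was 0.28 (SE 0.05, edgeR adjusted p = 0.00054). Its close paralog Snx1 was at 188, 188 and 192 CPM with siControl and 186, 194 and 193 CPM with siEhd1 (0.01, edgeR adjusted p = 0.87). Snx5 (-0.00) and Snx6 (0.05) were near 0 as well. Snx32 had the largest absolute change of the 46 genes, -0.39 on the log2 scale, but at 11.7 to 21.9 CPM its libraries overlapped and it was not called (edgeR adjusted p = 0.080). Snx32 was called lower with DESeq2, with either replicate block and without M0_siCON replicate 3. It shares 468 exon bases (13.2% of its own) with Cfl1 on the opposite strand. Cfl1 stood at 719 ± 72 CPM in resting siControl cells. It was higher with siEhd1 in resting cells (0.35, edgeR adjusted p = 0.0011) and with LPS in siControl cells (0.89).

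Of the cargo adaptors Snx3, Snx12, Snx17 and Snx27, only Snx27 was called. Snx27, whose PDZ domain binds the tails of receptors returned to the cell surface with retromer (chromosome 3, 94497544 to 94582716, minus strand), stood at 192, 182 and 187 CPM with siControl and at 147, 158 and 156 CPM with siEhd1. All siEhd1 libraries lay below all siControl libraries (log2 fold change -0.29, SE 0.05, edgeR adjusted p = 0.00027). Snx17, an adaptor of the retriever route, had a log2 fold change of 0.03 (edgeR adjusted p = 0.76), and Snx3 had 0.13 (0.12). Among the other BAR sorting nexins Snx33, related to the endocytic proteins SNX9 and SNX18, was at 39.1, 37.6 and 36.1 CPM with siControl and 29.0, 34.2 and 33.8 CPM with siEhd1. The groups did not overlap (-0.22, SE 0.07, edgeR adjusted p = 0.026), but leaving out M0_siCON replicate 1 (0.11) or 2 (0.062) or M0_siEHD1 replicate 1 (0.17) ended the call, and over the alternatives the adjusted p spanned 0.018 to 0.17. None of the 4 PXA-RGS sorting nexins (Snx13, Snx14, Snx19 and Snx25) and none of the 9 other PX sorting nexins was called by edgeR, DESeq2 or limma-voom; at an unadjusted p under 0.05, 16 of all 46 genes passed, 9 higher and 7 lower, beside 38.7% of all tested genes.

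The COMMD and CCC genes gave 3 higher and 1 lower call of 12, and 10 of the 12 fold changes were above 0 (median 0.11). Their called share of 33.3% lay near the background of 28.2%, and 47.3% of all tested genes had a fold change above 0. Commd10 stood at 19.9, 23 and 23.2 CPM with siControl and at 29.1, 27.5 and 25.5 CPM with siEhd1, with no overlap (0.31, SE 0.08, edgeR adjusted p = 0.0046). Commd7 stood at 43.0, 40.8 and 40.9 CPM and at 47.8, 45.5 and 48.9 CPM, again with no overlap (0.19, SE 0.05, edgeR adjusted p = 0.013). Leaving out M0_siCON replicate 2 (0.050) or M0_siEHD1 replicate 3 (0.055) ended the Commd7 call, whose adjusted p spanned 0.011 to 0.055 over the alternatives. COMMD proteins form a ring that docks on CCDC22 and CCDC93, and COMMD1 is also known for its role in copper handling and in limiting NF-kB. Commd1 stood at 15.5, 15.3 and 18.3 CPM with siControl and at 21.7, 18 and 21.4 CPM with siEhd1. The highest siControl library lay above the lowest siEhd1 library (0.32, SE 0.08, edgeR adjusted p = 0.0081), and the call was lost without M0_siEHD1 replicate 1 (0.051; 0.0023 to 0.051 over the alternatives). Commd1 shares 412 exon bases with Zrsr1 on the opposite strand, and Zrsr1 fell (-0.27).

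Ccdc93, the CCC subunit that binds phosphoinositides and helps recruit the complex (chromosome 1, 121431049 to 121506460, plus strand), went the other way. Its levels were 78.9, 73.7 and 74.4 CPM with siControl and 64.4, 67.8 and 63.4 CPM with siEhd1. The libraries did not overlap (-0.22, SE 0.05, edgeR adjusted p = 0.0032). Its partner Ccdc22 was not called (0.06, edgeR adjusted p = 0.49). Counting members whose 3 siEhd1 libraries all lay outside the siControl range, 9 were higher (background 21.4%) and 6 lower (background 22.7%).

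**Figure D2:**
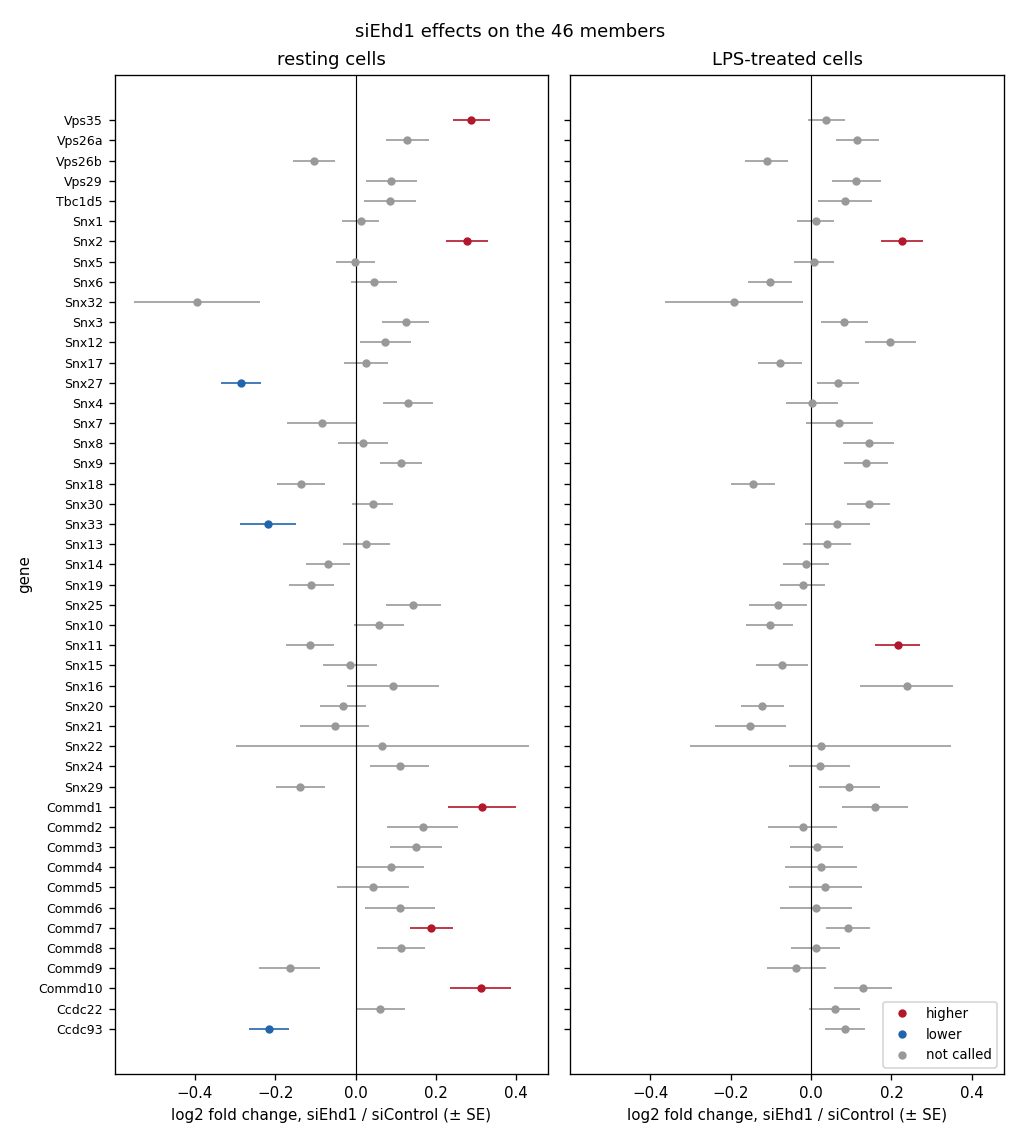
Log2 fold change of siEhd1 against siControl (x axis, points with SE bars) for each of the 46 genes (y axis, ordered by role) in resting cells (left) and LPS-treated cells (right), with called genes in red (higher) or blue (lower). All points lie within 0.40 of 0 on the log2 scale, with 8 coloured genes on the left and 2 on the right, of which Snx2 is coloured on both sides.

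In LPS-treated macrophages 2 of the 46 genes were called with siEhd1, Snx2 and Snx11, both higher, and 0 were lower. The background was 8.54% called (4.44% higher, 4.10% lower), and the members' share was 4.35%. DESeq2 and limma-voom called the same 2 genes and no other member. At an unadjusted p under 0.05 by edgeR, 7 members were higher and 2 lower, beside 11% and 10.4% of all tested genes. Beside these, 4 of 5 cell cycle markers rose (summed level 119.6 to 127.8 CPM with siControl, 169.3 to 180.9 CPM with siEhd1), 2 of 4 osteoclast markers rose, 1 of 4 stromal and endothelial markers rose (Dcn, 3.65 ± 1.40 to 7.12 ± 0.80 CPM, n = 3) and 0 of 7 macrophage markers was called. Their part in the results was not tested.

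Snx2 stood at 246, 227 and 240 CPM with siControl and at 284, 265 and 286 CPM with siEhd1 after LPS. The groups did not overlap, and Snx2 was the only member called in both states (0.23, SE 0.05, edgeR adjusted p = 0.0078). Without M1_siCON replicate 2 the adjusted p was 0.055, and it ranged from 0.00032 to 0.055 over the alternatives. Snx11, a PX sorting nexin of endosomes (chromosome 11, 96767555 to 96777559, minus strand), stood at 48.9, 47.3 and 50.4 CPM with siControl and at 58.7, 56.4 and 55.1 CPM with siEhd1. Here too every siEhd1 library lay above every siControl library (0.22, SE 0.06, edgeR adjusted p = 0.019). Snx11 missed the threshold when M1_siCON replicate 2 (0.089) or M1_siEHD1 replicate 1 (0.098) was left out, and its adjusted p spanned 0.015 to 0.098. Snx12 had 0.20 (edgeR adjusted p = 0.059) and was not called. It was called with no count filter, without M0_siEHD1 replicate 2 and without M1_siCON replicate 1.

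After LPS, Vps35 was at 187, 185 and 189 CPM with siControl and 190, 189 and 196 CPM with siEhd1 (0.04, edgeR adjusted p = 0.71). Snx27 was at 120, 121 and 130 CPM and at 129, 134 and 126 CPM, with overlapping libraries (0.07, edgeR adjusted p = 0.50). Ccdc93 was at 83.3, 83.0 and 79.9 CPM and at 88.9, 84.6 and 87.6 CPM (0.08, edgeR adjusted p = 0.36). The siEhd1 libraries of Vps35 and Ccdc93 thus lay just above the siControl libraries, by less than the test could call. None of the 12 COMMD and CCC genes was called by edgeR, DESeq2 or limma-voom in this state (median 0.03). Counting libraries outside the siControl range, 11 members were higher (background 12.6%) and 3 lower (background 12.6%). Resting and LPS-treated effects share no library. Across the 46 genes, which are not independent replicates, the correlation was 0.37 by Pearson and 0.32 by Spearman, and 34 of 46 had the same sign (73.9%). Over all tested genes these were 0.39, 0.41 and 65.2%.

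**Figure D3:**
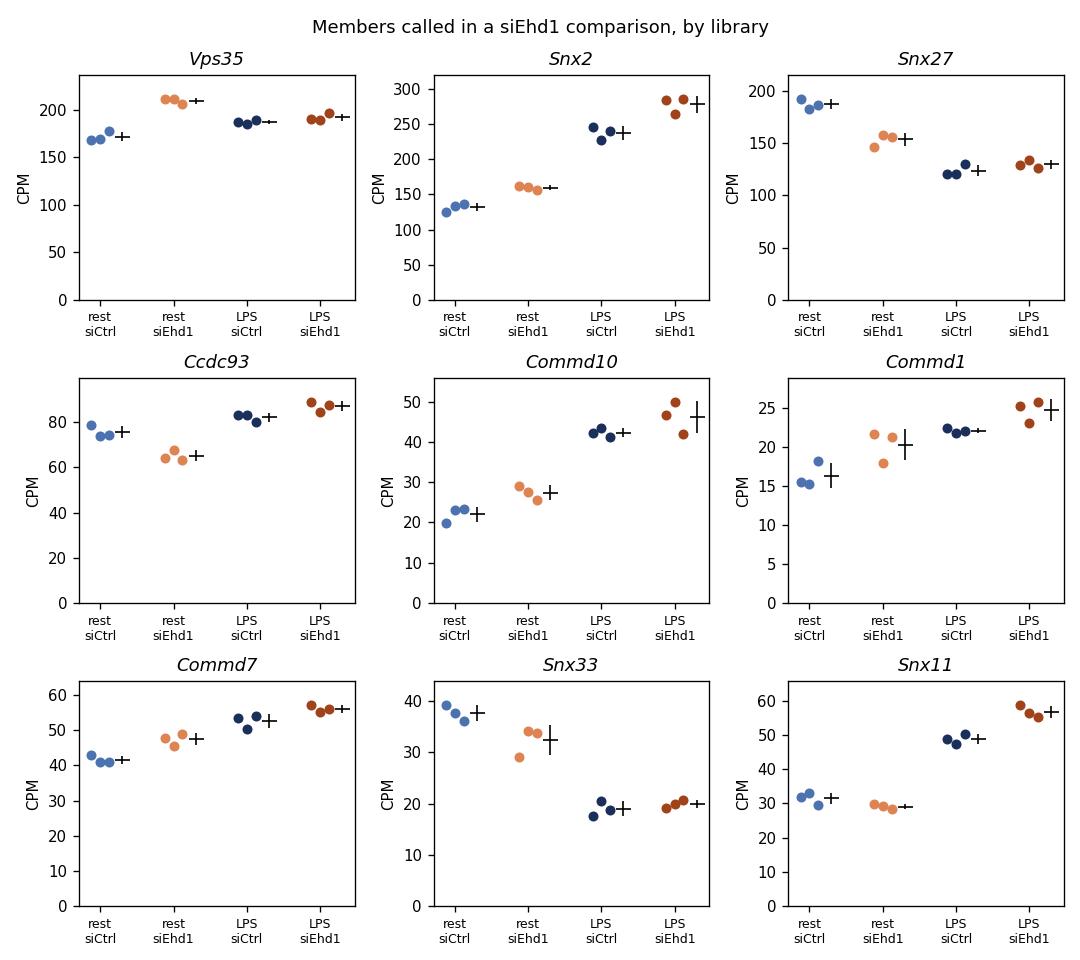
Levels in CPM (y axis from 0, a separate scale per gene) of the 9 genes called in either siEhd1 comparison, with 1 point per library in the 4 groups (x axis) and a cross for the mean ± SD of 3 libraries. Vps35, Snx27 and Ccdc93 differ between siRNAs in resting cells and lie close together after LPS, while Snx2 is higher with siEhd1 in both states.

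The siEhd1 effect differed between states for 4 of the 46 genes by the edgeR test of the difference, LPS-treated minus resting (8.7%, beside a background of 6.04%, of which 3.12% higher and 2.93% lower). Snx27 had the largest difference, 0.35 on the log2 scale (SE 0.07, edgeR adjusted p = 0.0052), and its call was kept in all 18 alternatives run. For Ccdc93 the difference was 0.30 (SE 0.07, edgeR adjusted p = 0.014), with 0.0046 to 0.055 over the alternatives. It missed the threshold in 1 of them, the replicate block within each table. For Snx11 it was 0.33 (SE 0.08, edgeR adjusted p = 0.019), with resting levels of 31.8, 33.0 and 29.7 CPM with siControl and 29.9, 29.1 and 28.4 CPM with siEhd1. The resting change of Snx11 was not itself called (-0.11, edgeR adjusted p = 0.17), and its difference missed the threshold when M0_siCON replicate 2 (0.060), M1_siCON replicate 2 (0.055) or M1_siEHD1 replicate 1 (0.057) was left out (0.012 to 0.060 over the alternatives). Vps35 had a difference of -0.25 (SE 0.06, edgeR adjusted p = 0.024). It missed the threshold when any of 6 libraries was left out: M0_siCON replicate 1 (0.071) or 2 (0.063), M0_siEHD1 replicate 1 (0.066) or 2 (0.056), and M1_siEHD1 replicate 1 (0.065) or 2 (0.054), with 0.0035 to 0.099 over the alternatives. For the other 5 genes called in resting cells the difference was not called: Snx33 0.28 (edgeR adjusted p = 0.13), Commd10 -0.18 (0.36), Commd1 -0.16 (0.52), Commd7 -0.10 (0.54) and Snx2 -0.05 (0.79). Sort1, which encodes the retromer cargo sortilin, fell with siEhd1 in resting cells by 0.53 on the log2 scale (edgeR adjusted p = 8.0e-06). After LPS it was not called (-0.12, edgeR adjusted p = 0.50), and its difference was 0.41 (edgeR adjusted p = 0.037). Its level in siControl cells was 102 ± 1.4 CPM in resting and 15.4 ± 1.1 CPM in LPS-treated cells.

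Between resting and LPS-treated siControl cells, the members were called about as often as all tested genes. Of the 46, 20 were higher and 12 lower after LPS. That share of 69.6% stands beside a background of 68.8% called (34.8% higher, 34.0% lower). The members' median absolute log2 fold change was 0.37 against 0.40 over all genes, and 5 of 46 changed at least 2-fold, against 20.4% of all tested genes. Members whose libraries did not overlap between states numbered 20 higher (background 35.5%) and 13 lower (background 35.3%). Resting and LPS-treated libraries were deposited in separate tables, so any difference in handling of these tables and LPS cannot be told apart. Beside these changes, 4 of 7 macrophage markers rose and 1 fell, 1 of 4 tested osteoclast markers rose and 3 fell, 3 of 4 stromal and endothelial markers, 1 of 2 neutrophil markers and the 1 tested dendritic marker rose, and 1 of 5 cell cycle markers fell. Their summed levels in resting and LPS-treated siControl libraries were 23178 to 23846 and 30855 to 37356 CPM for macrophage markers, 64.4 to 90.8 and 61.9 to 78.1 CPM for osteoclast markers and 97.6 to 153.8 and 119.6 to 127.8 CPM for cell cycle markers. Their part in the LPS results was not tested.

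The largest rise was in Snx18, a BAR sorting nexin with an SH3 domain that acts in endocytosis and autophagosome formation. It stood at 56.1, 48.9 and 51.5 CPM in resting and at 150, 164 and 154 CPM in LPS-treated siControl cells, a 2.99-fold rise (log2 fold change 1.58, SE 0.06). Snx10, a small PX protein linked to endosome and lysosome acidification and to osteoclast function, stood at 69.2, 72.8 and 77.2 CPM and at 206, 187 and 216 CPM (1.47, SE 0.06). Snx20, which binds the P-selectin ligand PSGL-1, went from 61.9, 57.3 and 62.6 CPM to 123, 125 and 127 CPM (1.04, SE 0.06). In each of these genes every LPS-treated library lay above every resting one. Snx6 (1.04), Commd10 (0.94) and Snx2 (0.85) followed.

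Snx29 fell most. It stood at 58.0, 54.6 and 53.8 CPM in resting and at 16.7, 17.6 and 15.6 CPM in LPS-treated siControl cells, 30.0% of the resting level (-1.74, SE 0.07). Snx33 went from 39.1, 37.6 and 36.1 CPM to 17.7, 20.6 and 18.7 CPM (-0.99, SE 0.07). Snx5 went from 470, 461 and 494 CPM to 280, 283 and 303 CPM (-0.72, SE 0.05). None of these groups overlapped. Snx30 (-0.65), Snx27 (-0.60) and Tbc1d5 (-0.54) came next.

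**Figure D4:**
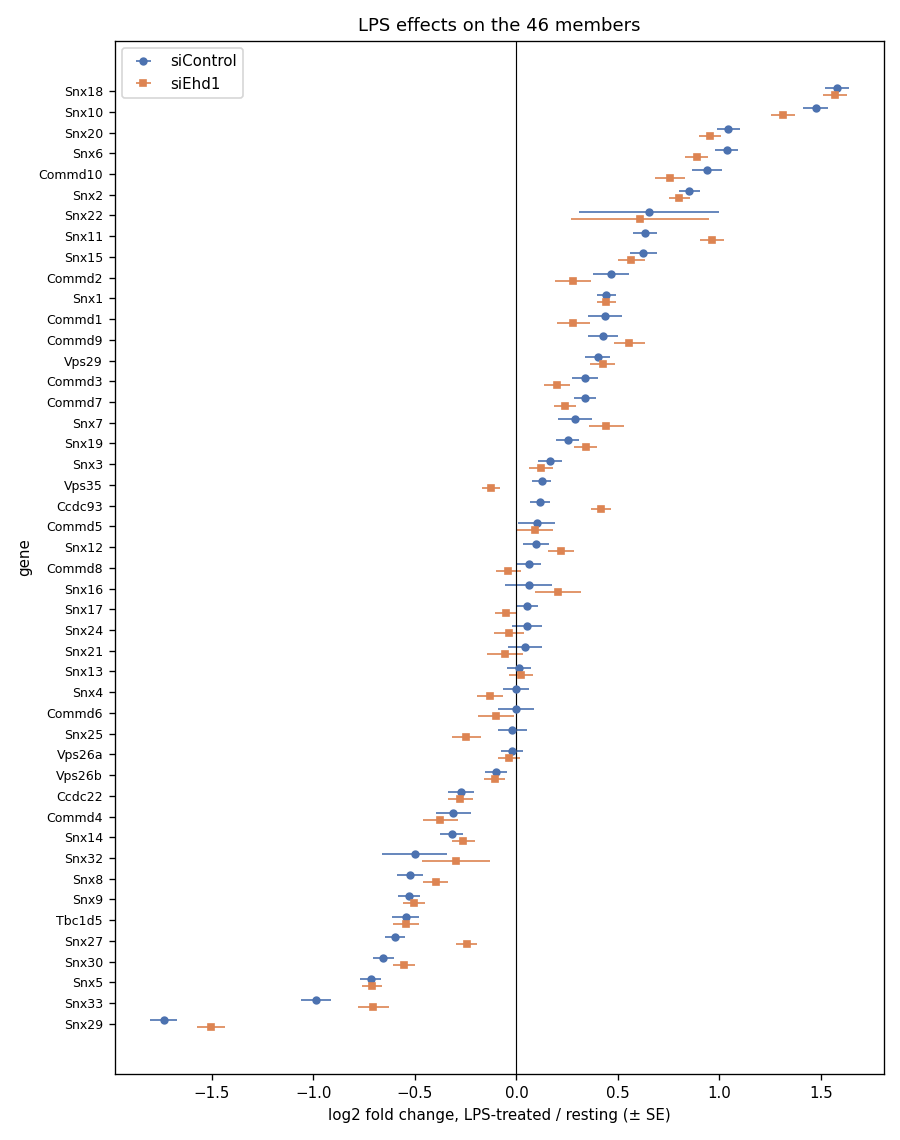
Log2 fold change of LPS-treated against resting cells (x axis, points with SE bars) for the 46 genes (y axis, ordered by the siControl value), with siControl as blue circles and siEhd1 as orange squares. Both siRNAs place Snx18 (1.58 and 1.57) and Snx10 (1.47 and 1.31) at the top and Snx29 (-1.74 and -1.50) at the bottom.

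By role, the changes in siControl cells went both ways within most groups. Of the retromer core, Vps29, its small phosphoesterase-fold subunit, rose (0.40) and Vps35 rose slightly (0.13), while Vps26a (-0.02) and Vps26b (-0.10) were not called. Vps35 was no longer called without M0_siCON replicate 1 (edgeR adjusted p = 0.069) or 2 (0.064) or M1_siCON replicate 3 (0.056), and the adjusted p ranged from 0.012 to 0.19 over the alternatives. Snx1, Snx2 and Snx6 rose, and Snx5 and Snx32 fell. Of the adaptors, Snx3 rose (0.17), Snx27 fell, and Snx12 (0.10) and Snx17 (0.05) were not called. The Snx3 call was lost without M0_siCON replicate 1 (edgeR adjusted p = 0.051) or 2 (0.080) or M1_siCON replicate 1 (0.11; 0.0057 to 0.11 over the alternatives). That of Snx32 (-0.50) was lost without M0_siCON replicate 1 (0.058) or M1_siCON replicate 1 (0.063) or 2 (0.057; 0.0015 to 0.063).

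Of the 7 other BAR sorting nexins, Snx18 and Snx7 rose and Snx8, Snx9, Snx30 and Snx33 fell. Of the 9 other PX sorting nexins, Snx10, Snx11 (0.63), Snx15 (0.62) and Snx20 rose and Snx29 fell. Among the PXA-RGS genes, whose products act at contacts between the endoplasmic reticulum and other membranes, Snx19 rose (0.25) and Snx14 fell (-0.32). The COMMD and CCC genes had 7 higher and 2 lower of 12: Commd1 (0.44), Commd2 (0.47), Commd3 (0.34), Commd7 (0.34), Commd9 (0.43), Commd10 (0.94) and Ccdc93 (0.12) rose, and Commd4 (-0.31) and Ccdc22 (-0.27) fell. The called share was 75% here. It was 85.7% for the 7 other BAR, 55.6% for the 9 other PX and 50% for the 4 PXA-RGS genes, beside a background of 68.8%. For the 5 ESCPE-1 genes it was 100%, and for the 4 retromer core genes and the 4 cargo adaptors 50% each. These sets are small. The Ccdc93 call was lost in 12 of 19 alternatives (edgeR adjusted p from 0.024 to 0.24). These included leaving out M0_siCON replicate 2 (0.14) or 3 (0.11), M0_siEHD1 replicate 1 (0.053), M1_siCON replicate 1 (0.092) or 2 (0.10) or M1_siEHD1 replicate 3 (0.050).

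In siEhd1 cells LPS gave 19 rises and 13 falls (background 67.0%, with 32.9% higher and 34.0% lower), with 20 members higher and 14 lower without overlap (backgrounds 35.2% and 36.0%). Here 5 of 5 cell cycle markers fell (summed level 337.0 to 417.8 CPM in resting and 169.3 to 180.9 CPM in LPS-treated cells), 5 of 7 macrophage markers rose and 1 fell, and their part was not tested. The 6 largest rises were in Snx18 (1.57), Snx10 (1.31), Snx11 (0.96), Snx20 (0.95), Snx6 (0.89) and Snx2 (0.80), and the 6 largest falls in Snx29 (-1.50), Snx5 (-0.71), Snx33 (-0.70), Snx30 (-0.55), Tbc1d5 (-0.54) and Snx9 (-0.50). Snx27 fell by 0.24 on the log2 scale here, beside 0.60 with siControl, and Ccdc93 rose by 0.42, beside 0.12. Vps35 fell by 0.12 with siEhd1 and rose by 0.13 with siControl. The Vps35 fall had an edgeR adjusted p of 0.021 and was lost without M0_siEHD1 replicate 1 (0.059) or 2 (0.056) or M1_siEHD1 replicate 1 (0.068) or 2 (0.070), with a range of 0.0096 to 0.22. The rise of Commd3 (0.20, edgeR adjusted p = 0.0099) was lost without M1_siEHD1 replicate 1 (0.054; 0.0051 to 0.054). The LPS and siEhd1 comparisons share libraries, so their values are set side by side only. These pairs of LPS effects differ by the same quantity as the test of the difference between states given above.

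The balance between related paralogs was read as shares. Snx2 made up 52.8 ± 0.94% of the summed Snx1 and Snx2 RPKM in resting siControl cells and 57.3 ± 0.99% with siEhd1 (n = 3 libraries). After LPS it made up 59.7 ± 1.4% and 63.3 ± 1.2%. All 4 comparisons of this share, between siRNAs and between states, were without overlap. Vps26a made up 74.8 ± 1.3% of Vps26a and Vps26b in resting siControl cells and 77.7 ± 0.52% with siEhd1, and 75.8 ± 1.4% and 78.6 ± 0.60% after LPS. Here the siRNA groups did not overlap in either state, while the states overlapped. Snx6 made up 11.4 ± 0.37% of Snx5, Snx6 and Snx32 in resting and 30.2 ± 1.4% in LPS-treated siControl cells, and Snx18 made up 15.6 ± 1.1% and 45.4 ± 1.4% of Snx9, Snx18 and Snx33. With siEhd1 the Snx18 share was 13.9 ± 0.53% and 40.8 ± 0.92%, in each state below every siControl library. Snx18 itself was not called with siEhd1 in either state (edgeR adjusted p = 0.097 and 0.12), nor were Vps26a and Vps26b. The Snx6 share overlapped between siRNAs in both states. The shares of Snx5 in the same set and of Snx12 in Snx3 and Snx12 overlapped in resting cells but not after LPS. No background over other gene sets was computed for the shares. For each share without overlap an exact two-sided permutation test gave p = 0.1, the smallest that 3 against 3 libraries allow.

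**Figure D5:**
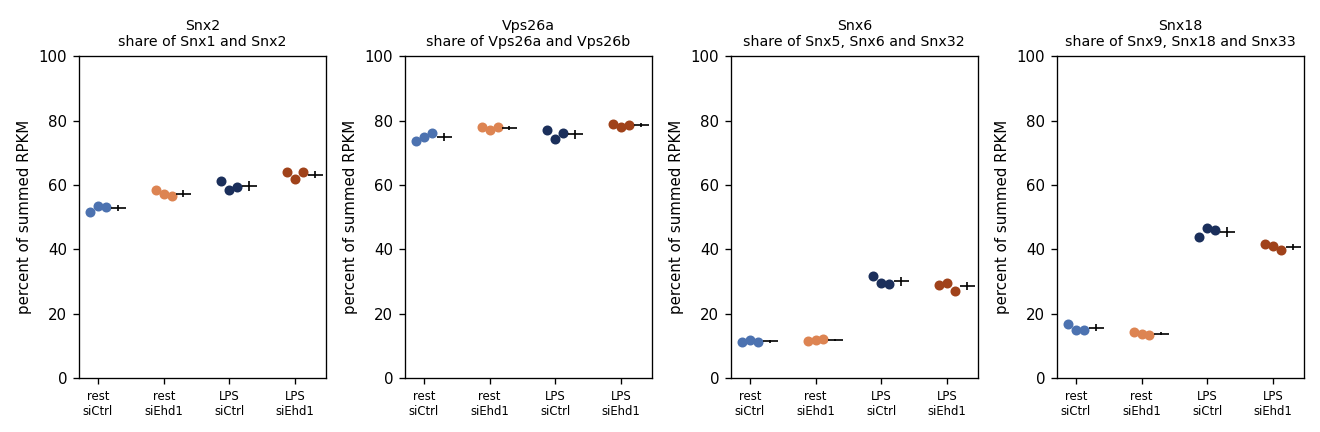
Share of 1 paralog in the summed RPKM of its set (y axis, percent from 0 to 100) in each library of the 4 groups (x axis), with crosses for mean ± SD of 3 libraries. The mean Snx2 share stands between 52.8% (leftmost group) and 63.3% (rightmost group), and the Snx6 and Snx18 shares separate resting from LPS-treated libraries.

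Other genes of the same pathway, chosen by role and outside the name rule, numbered 14: the retriever subunits, the WASH complex, Rab7, Rab7b and Rab21, and the endosomal ankyrin-repeat and VPS9 proteins. In resting cells 0 rose and 3 fell with siEhd1, and in LPS-treated cells 0 rose and 2 fell. These shares, 21.4% and 14.3%, stand beside backgrounds of 28.2% and 8.54%. Ankrd27, which encodes VARP, a VPS29-binding exchange factor for RAB21, was lower in both states. It stood at 52.4, 49.6 and 48.8 CPM with siControl and 38.2, 39.7 and 40.2 CPM with siEhd1 in resting cells (-0.35, SE 0.06, edgeR adjusted p = 7.0e-05), and at 55.7, 55.3 and 51.0 CPM and 44.0, 43.6 and 42.7 CPM after LPS (-0.31, SE 0.06, edgeR adjusted p = 0.0010). No libraries overlapped in either state. Fam21, a WASH complex gene (-0.18, edgeR adjusted p = 0.014), and 9030624J02Rik, the retriever gene Vps35l (-0.15, 0.031), fell in resting cells. Leaving out M0_siCON replicate 1 (0.077) or M0_siEHD1 replicate 1 (0.066) ended the Fam21 call (0.0068 to 0.077 over the alternatives). That of 9030624J02Rik was lost in 7 of 19 alternatives (0.024 to 0.14), including without M0_siCON replicate 1 (0.098) or 3 (0.11) or M0_siEHD1 replicate 1 (0.14) or 3 (0.065). Fam45a, another retriever-associated gene, fell after LPS (-0.26, edgeR adjusted p = 0.010), but not when M1_siCON replicate 3 (0.057) or M1_siEHD1 replicate 1 (0.063) was left out (0.011 to 0.063). With LPS in siControl cells 6 of the 14 rose and 2 fell, a share of 57.1% beside a background of 68.8%.

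A sequence of 7 bases, GCCTTGT, which an earlier analysis of these data found to be frequent in the 3′ untranslated regions of genes lower with siEhd1, was looked for in the members' annotated 3′ untranslated regions on the sense strand. Of the 46 members 4 carried it (8.7%), against 14.7% of 11574 genes searched. The sites are shown to set the members that carry the letters apart from those called lower, with GCCTTGT in capitals and 8 bases on each side (GENCODE M21 transcripts, GRCm38).
Commd3, chr2:18675965-18675987, plus strand: ccagacgcGCCTTGTctcctgct
Commd7, chr2:153617525-153617547, minus strand: tgtttaggGCCTTGTggattcaa
Snx16, chr3:10417989-10418011, minus strand: tgtgaaatGCCTTGTctcttctt
Vps29, first site, chr5:122363990-122364012, plus strand: attcttaaGCCTTGTtgcacgag
Vps29, second site, chr5:122364814-122364836, plus strand: tgagctggGCCTTGTtcttggat
Commd3 carried it in 2 of 2 transcripts with such a region, Commd7 in 1 of 2, Snx16 in 1 of 3 and Vps29 in 1 of 4. None of Snx27, Ccdc93 and Snx33, the members lower in resting cells, carried it, while the carrier Commd7 was higher. Of all 1703 tested carriers, 28.1% were lower and 9.2% higher in resting cells, beside 12.1% and 15.4% of genes without it. The 4 member carriers are too few to set against these shares. The median resting siEhd1 effect was 0.12 over the 4 carriers and 0.04 over the other 42 members. Over all genes searched these medians were -0.09 with the sequence and 0.0015 without it. The sequence was itself chosen on the siEhd1 comparisons of these libraries, so the values are a description. Of the 14 pathway genes outside the name rule, Ankrd27, Wash1, Rab7b, Ankrd50 and Rab21 carried it, and of these only Ankrd27 was called with siEhd1, lower in both states. After LPS, 14.4% of all tested carriers were lower with siEhd1 and 3.5% higher. A match is a run of letters in an annotation and was not tested as a binding site.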

How the data were processed

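Bulk polyA RNA-seq of 12 macrophage libraries was analysed from 2 count tables. The values are raw counts by gene symbol, as the authors deposited them; STAR 2.7.6a and featureCounts 2.20.0 are among the tools named for build mm10 in the submitters' processing notes, with FastQC 0.10.1 and Trim Galore 0.6.3 besides. The sources used here do not state the annotation, the strand setting or the handling of multiply mapped reads, so paralog and overlapping-gene counts are uncertain to that extent. Exon bases shared with a gene on the same strand made up 86.3% of Ccdc22 (Gm36995) and 66.8% of Commd5 (Gm49527). On the opposite strand they made up 28.5% of Snx22 (Ppib), 17.2% of Ccdc22 (Foxp3), 16.2% of Snx11 (Gm11537) and 12.5% of Snx16 (Chmp4c). Columns were matched to samples by the library names, and 0 were left unused.

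The deposited counts went into edgeR 4.0.16 (limma 3.58.1, R 4.3.3): filterByExpr by group (minimum count 10, minimum total 15), which kept 12164 genes and all 46 members, TMM factors, and a robust quasi-likelihood fit of the 12 libraries with a mean for each group (8 residual degrees of freedom, common biological coefficient of variation 0.0588). Benjamini-Hochberg adjustment ran over all tested genes with a threshold of 0.05, and called means past it. The SE of a log2 fold change was its size over the root of F. The script was run on simulated counts with known changes and the same spread for every gene. That run cannot vouch for the calls made in these libraries. CPM used TMM factors, and RPKM divided CPM by the union of exons in GENCODE M21 (12077 genes matched). Alternatives were DESeq2 1.42.0, RLE size factors, no count filter, limma-voom, replicate blocks, only the 6 libraries compared, and leaving out each library. No libraries were identical, and within groups the chi-square per degree of freedom was 2.99 to 23.6.

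Members called in a siEhd1 comparison or in the difference were named with their values, as were the 6 largest rises and falls with LPS at a mean of at least 5 CPM, and core genes whether called or not. Members, lists and the 7-base sequence were chosen with earlier results of these data known.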

Additional observations from a re-analysis of the deposited data

Results flagged for a closer look

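For 4 of the 46 genes (8.7%) the siEhd1 effect differed between LPS-treated and resting cells by the edgeR test of the difference itself. The background was 6.04% of all tested genes, with 3.12% higher and 2.93% lower. The differences, on the log2 scale and as LPS-treated minus resting, were 0.35 for Snx27, 0.33 for Snx11, 0.30 for Ccdc93 and -0.25 for Vps35. Snx27 and Ccdc93 were lower with siEhd1 in resting cells (-0.29 and -0.22) and not called after LPS (0.07 and 0.08). Vps35 was higher in resting cells (0.29) and not called after LPS (0.04), and Snx11 was called only after LPS (0.22, with -0.11 in resting cells). Only the Snx27 difference was called in all 18 alternatives run. That of Vps35 was lost in 7, that of Snx11 in 4 and that of Ccdc93 in 1. The cell cycle markers also differed between states (4 of 5 called lower in the difference), as did 3 of 7 macrophage markers (called higher), and their part in these 4 differences was not tested.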

How the results depend on the processing

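No called member changed direction in any alternative run. The labels do not say whether the replicate numbers pair the libraries. Deviations of same-numbered libraries had correlations of -0.22 to 0.25 over 18 pairs, with 2 above 0.1, and 8 of 36 comparisons were highest with their own number. With 3 libraries per group these values cannot show that the libraries were unpaired. With the replicate block within each table, 1 member was higher with siEhd1 after LPS (2 without it), and the difference had 1 higher (3 without it) and 0 lower (1 without it), which left Snx2 and Snx27 as the calls. The calls it did not give were Snx11 after LPS (edgeR adjusted p = 0.054) and, in the difference, Ccdc93 (0.055), Snx11 (0.053) and Vps35 (0.099). The replicate block over all libraries changed no count by more than 1.5 times. Leaving out each library gave 2 to 5 members lower in resting cells, 0 to 3 higher after LPS and 0 to 1 lower in the difference. The 5 lower came without M0_siCON replicate 3, which added Snx32 and Commd9. Over all genes, 1039 were called with siEhd1 after LPS and 607 without M1_siEHD1 replicate 1, and 735 in the difference against 453 without M0_siEHD1 replicate 1 and 473 without M0_siCON replicate 1. With 3 libraries per group, members not called in resting cells had siEhd1 changes of -23.9% to 12.3%, and Snx22 had at most 23 counts per library.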
